A study of Mus musculus with 2 samples.

Results

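The secreted signals made by the mammary epithelium itself were described through 10 genes of the 27998 in the count tables. They comprised the chemokine genes Cxcl14, Cxcl1, Cxcl2, Cxcl5, Cxcl16, Cx3cl1, Ccl2 and Ccl20 and the cytokine genes Csf1 and Il17b. Each was taken as the row whose symbol equals that name. The values come from adult FVB/NJ female mice, an inbred strain, at 10 weeks of age, with no treatment and no introduced allele. Cells of 4 mice were pooled for each of 2 Chromium libraries, a droplet method in which each RNA molecule is counted once from its 3 prime end. One library held total epithelium (Lin-CD24+) and the other sorted basal cells (Lin-CD29hiCD24+), where Lin- means that cells carrying TER119, CD31 or CD45 had been gated out. Because each group is 1 library of pooled mice, the spread between mice is not known, no p-value is given, and every interval covers counting error only.

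Chemokines are small secreted proteins that draw leukocytes along a gradient through G protein-coupled receptors. The ligands of Cxcr2 (Cxcl1, Cxcl2, Cxcl5) attract neutrophils, Ccl2 attracts monocytes through Ccr2, Ccl20 attracts Ccr6-bearing lymphocytes and dendritic cells, and Cxcl16 and Cx3cl1 are made as membrane-bound proteins that can be shed. Csf1 is the growth factor of macrophages, which take part in ductal growth of the mammary gland, and Il17b is a member of the interleukin-17 family that signals through Il17rb. Cxcl14 is a chemokine made by many epithelia at rest, and many inflammatory chemokine genes are induced through the transcription factor NF-kappaB.

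Depth differed between the libraries: 9227651 counts in 3302 cells of total epithelium (median 2425.5 per cell, range 802 to 12967) and 2488704 counts in 4771 sorted basal cells (median 487, range 137 to 1946). Cells of the total epithelium were split by summed counts. Basal cells, the outer contractile layer, had 10 or more counts of Krt5, Krt14 and Acta2, and there were 1280 of them. Mature luminal (ML) cells had 10 or more counts of Prlr, Stc2 and Gpx3 (1133 cells), and luminal progenitor (LP) cells were other cells with 3 or more counts of Krt8, Krt18 and Krt19 (766 cells). A further 26 cells passed the basal and the ML rule together, and 97 cells passed none. Markers that the rule did not use went with the names: 7 of 7 basal markers, 6 of 6 LP markers and 6 of 6 ML markers had their highest level in the class they name. The classes may not be free of other cells, however. The 6 fibroblast markers summed to 358 CPM (counts per 1000000 counts of the group) in the basal class, 83.4 in LP, 1419 in ML and 8489 in the 97 remaining cells. Most of their counts over the library were of Dcn, with 7080, and the next marker, Col3a1, had 690. Whether Dcn counts in a class come from fibroblasts was not tested, so these sums do not measure a share of other cells. A small set of 13 ML cells and 38 remaining cells carried 2 or more counts of Col1a1, Col1a2 and Col3a1. The leukocyte markers Ptprc and Adgre1 and the 3 measured Cd3 genes had no count, and the 7 myeloid markers summed to 11.3 CPM or less in the 3 classes and to 450 CPM in the remaining cells. The libraries shared 28 barcodes.

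The 250 bases before the RefSeq transcription start are printed for Cxcl1 and Cxcl2, the pair that was highest in LP cells. They are also printed for Cxcl14, the chemokine found in nearly all cells of the basal class. They are RefSeq sequences of build GRCm38.p6, at chr5:90890995-90891244 (plus strand), chr5:90903649-90903898 (plus) and chr13:56296552-56296801 (minus). The annotation used for gene positions below starts Cxcl1 at 90891241 and Cxcl2 at 90903871. By those starts, the last bases of these 2 windows lie within the genes, and distances to the start would be shorter. Capitals mark runs of 10 or more bases, read on the strand of the gene, that Cxcl1 and Cxcl2 have in common.
Cxcl1: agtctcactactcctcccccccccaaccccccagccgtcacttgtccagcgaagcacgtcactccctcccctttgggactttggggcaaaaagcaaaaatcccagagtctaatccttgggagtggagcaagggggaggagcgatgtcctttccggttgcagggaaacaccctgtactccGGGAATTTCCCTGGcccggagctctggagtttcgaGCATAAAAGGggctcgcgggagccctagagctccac
Cxcl2: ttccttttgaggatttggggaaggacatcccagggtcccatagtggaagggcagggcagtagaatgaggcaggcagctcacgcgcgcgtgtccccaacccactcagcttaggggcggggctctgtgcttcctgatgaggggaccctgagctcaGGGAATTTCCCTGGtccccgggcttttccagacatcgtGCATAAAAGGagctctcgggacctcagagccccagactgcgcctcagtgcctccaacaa
Cxcl14: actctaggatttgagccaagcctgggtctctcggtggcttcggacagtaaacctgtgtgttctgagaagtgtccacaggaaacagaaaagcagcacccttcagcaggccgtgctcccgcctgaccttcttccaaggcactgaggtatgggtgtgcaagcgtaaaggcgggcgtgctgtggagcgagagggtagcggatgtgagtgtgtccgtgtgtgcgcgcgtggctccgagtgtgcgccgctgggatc
The windows of Cxcl1 and Cxcl2 shared a run of 14 bases, GGGAATTTCCCTGG, which starts 71 bases before the RefSeq start of Cxcl1 and 97 bases before that of Cxcl2. It contains letters of the kind found in many NF-kappaB binding sites. Of 32851 promoter windows of this length, read on both strands, 2 held the run, those of Cxcl1 and Cxcl2. A second shared run, GCATAAAAGG, starts 36 and 59 bases before the RefSeq starts and was in 19 windows (0.0578%). Both runs were read from the windows of Cxcl1 and Cxcl2, so these 2 windows hold them by construction. Promoters were at hand for 6 of the 10 genes, with Ccl20, Csf1 and Cx3cl1 beside the 3 printed, and the longest run in the other 14 pairs of these genes was 8 to 11 bases. A shared run describes letters and does not show that a factor binds there.

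The positions of the genes, in the GRCm38 (mm10) annotation, place Cxcl5 (chr5:90759360-90761624), Cxcl1 (chr5:90891241-90893115) and Cxcl2 (chr5:90903871-90905938) on the plus strand of chromosome 5. Cxcl14 is at chr13:56288643-56296551 (minus strand), Cx3cl1 at chr8:94772009-94782427 (plus), Ccl20 at chr1:83116766-83119167 (plus) and Csf1 at chr3:107741048-107760469 (minus). On chromosome 11, Cxcl16 (chr11:70453983-70459984, minus) overlaps Zmynd15 and Ccl2 (chr11:82035571-82037453, plus) overlaps the predicted gene Gm17268, each on the opposite strand. Il17b, on chromosome 18, overlaps the antisense gene Gm38165. Whether reads were assigned by strand is not given in the sources used here. Of windows of 50 bases in the transcripts of Cxcl2, 5.84% were also in Cxcl3, so that a part of its reads could be ambiguous, and Cxcl3 itself had 2 counts, both in LP.

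The basal class had the highest CPM of 5 genes (Cxcl14, Il17b, Ccl2, Csf1 and Cx3cl1), LP of 4 (Cxcl1, Cxcl2, Cxcl16 and Ccl20) and ML of 1 (Cxcl5). Over all 15477 genes with a count in these classes, 41.9% were highest in basal, 19.2% in LP and 38.9% in ML. The basal and LP levels of Cx3cl1 did not differ beyond counting error. The order rests on very few molecules for Cxcl5, with 5 counts over the 3 classes, and for Ccl20, with 2. CPM compares 1 gene between groups of cells, and levels of different genes are not ranked here.

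**Figure D1:**
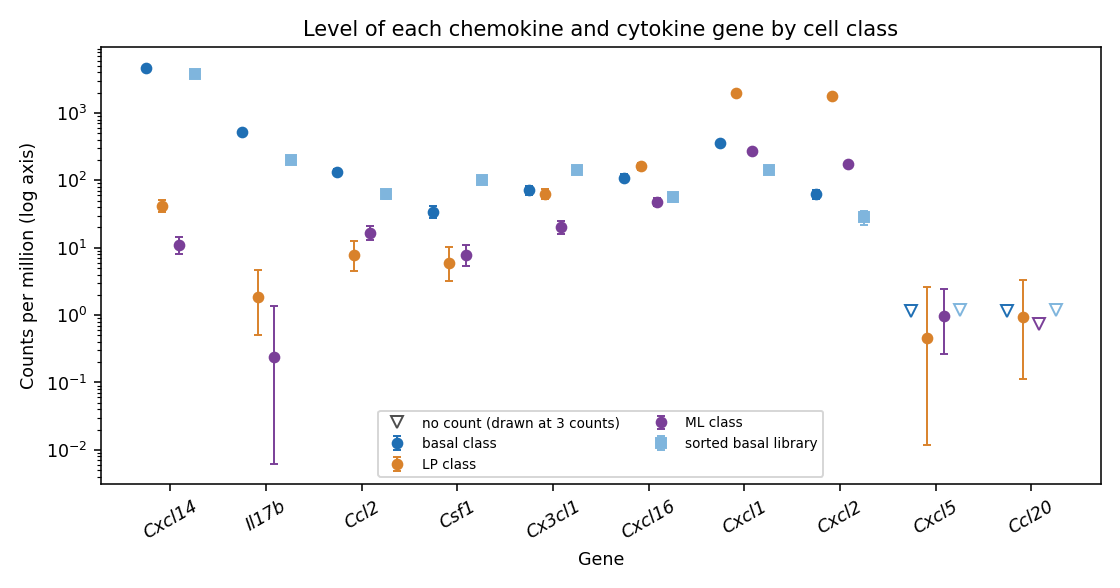
CPM of each gene (log axis) in the basal, LP and ML classes of the total epithelium (circles) and in the sorted basal library (squares), with exact Poisson 95% intervals; open triangles mark groups with no count, drawn at the level of 3 counts. Cxcl14 and Il17b stand far higher in the basal groups than in LP and ML, while Cxcl1 and Cxcl2 peak in LP at 1986 and 1818 CPM.

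Among genes with 20 or more counts over a pair of classes, a 2-fold ratio was used to mark a difference. Between basal and LP cells, 8 of the 10 genes could be compared, of which 4 were 2-fold or more higher in basal (Cxcl14, Ccl2, Csf1, Il17b; 22.3% of 9604 genes tested) and 2 in LP (Cxcl1 and Cxcl2; 12.3%). Between basal and ML, 6 of 8 were 2-fold or more higher in basal (background 20.4% of 10403 genes) and 1, Cxcl2, in ML (background 19.6%). Between LP and ML, 7 genes could be compared, of which 5 were 2-fold or more higher in LP (background 10.5% of 9724 genes) and 1, Ccl2, in ML (background 17.9%). The median log2 ratio over all tested genes was 0.23 for basal over LP, -0.03 for basal over ML and -0.29 for LP over ML, shifts that are small beside most ratios below.

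Cxcl14 was the chemokine shared by nearly all cells of the basal class. It had 4703 CPM in the basal class (95% interval 4621 to 4786, from 12471 counts), 41.7 CPM in LP (90 counts), 10.9 CPM in ML (45 counts) and 3804 CPM in the sorted basal library (9467 counts). The 2 basal groups lay far above the luminal classes, at 113 times LP (91.7 to 140) and 432 times ML (323 to 592) for the basal class. A count was present in 95.9% of basal cells, with a median of 8 and a middle range of 4 to 13 per cell, against 29 LP cells (3.79%) and 43 ML cells. After every cell was thinned to 800 counts, the shares were 88.5%, 1.96% and 0.883%. In the shallower sorted basal library, 67.5% of cells had a count. With cells thinned to 400 counts, Cxcl14 was in 75.8% of basal-class and 65.8% of sorted cells. The LP counts were not spread evenly: 8 cells held 68 of the 90, with up to 17 in a cell, and the 141 LP cells without LP markers were at 259 CPM against 11.6 CPM in the other 625. In ML no cell had more than 2 counts. How much of the luminal counts was free RNA was not tested. The 13 basal cells with most Cxcl14 held only 3.88% of its counts, so that the level was carried by the class as a whole.

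Il17b went with Cxcl14 in its class but was detected in fewer cells. It had 514 CPM in the basal class (487 to 542; 1363 counts), 4 counts in LP and 1 in ML. It had 201 CPM (500 counts) in the sorted basal library. The basal level was 277 times that in LP (108 to 1019). The ratio to ML, 2124, rests on 1 ML count and its interval ran from 381 to 83965. Counts were found in 52.1% of basal cells (29.8% after thinning to 800) and in 0.392% of LP and 0.0883% of ML cells after thinning. All 4 LP counts were in LP cells that also had Cxcl14 counts. In thinned basal cells, Il17b was detected in 30.5% of the 1133 cells with Cxcl14 (27.8 to 33.2%) and in 25.2% of the 147 cells without it (18.4 to 33.0%), intervals that overlap. Its receptor gene Il17rb had 6 counts in basal, 2 in LP and 6 in ML. Il17re, which encodes the receptor subunit for the related cytokine Il17c, had 73.2 CPM in LP, 64.6 in ML and 10.9 in basal cells.

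Ccl2 was concentrated in few cells. Its level was 134 CPM in the basal class (121 to 149; 356 counts), 7.88 CPM in LP (17 counts), 16.7 CPM in ML (69 counts), 481 CPM in the remaining cells (77 counts) and 61.9 CPM in the sorted basal library (154 counts). Basal cells thus had 17.0 times the LP level (10.5 to 29.6) and 8.04 times the ML level (6.20 to 10.6). The ML counts came almost wholly from the 13 collagen-bearing cells, which held 67 of 69, and 15 of the 17 LP counts were in 1 collagen-bearing cell. Without cells with LP markers or collagen, ML had 1 count of Ccl2 in 985 cells, and the 3 collagen-bearing cells of the basal class had none of the 356 basal counts. Even in the basal class a count was found in only 9.92% of cells, and the 13 cells with most held 39.9% of the counts. Ccl7, its neighbouring monocyte chemokine, was detected in 9.45% of basal cells with Ccl2 (4.98 to 15.9%; 12 of 127) and in 1.82% of those without (1.13 to 2.77%). With cells thinned to 800 counts 5 of 77 cells with Ccl2 (6.49%, 2.14 to 14.5%) and 18 of 1203 without (95% interval 0.889 to 2.35%) had Ccl7, with intervals that overlap. In ML, 8 of the 10 cells with Ccl2 and none of the other 1123 had Ccl7.

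Csf1 and Cx3cl1 were found at low levels in basal cells. Csf1 had 33.9 CPM in the basal class (27.3 to 41.7; 90 counts), 6.02 in LP (13 counts), 7.74 in ML (32 counts) and 102 in the sorted basal library (254 counts). The basal class had 5.64 times the LP level (3.13 to 11.0) and 4.38 times the ML level (2.90 to 6.78), and LP and ML did not differ beyond counting error, with a ratio of 0.778 (0.375 to 1.52). Of the 32 ML counts, 10 were in the collagen-bearing cells and 13 in cells with LP markers, and the other 985 ML cells were at 2.69 CPM. Thinned to 800 counts, Csf1 was in 2.58% of basal cells, in 0.261% of LP and 0.353% of ML cells. For Cx3cl1, the membrane-bound ligand of Cx3cr1, levels were 71.3 CPM in basal (61.5 to 82.2; 189 counts), 63.0 in LP (52.9 to 74.5; 136 counts) and 20.1 in ML (16.0 to 24.9; 83 counts). Basal and LP could not be told apart by counting (ratio 1.13, 0.903 to 1.42), and both exceeded ML, by 3.55 times (2.73 to 4.65) and 3.14 times (2.37 to 4.17). Thinned to 800 counts, 5.16% of basal cells had Cx3cl1, close to LP (6.01%) and above ML (0.794%).

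Cxcl16, the other membrane-bound ligand, was measured in all 3 classes. It had 161 CPM in LP (144 to 179; 347 counts), 109 in basal (96.8 to 122; 289 counts), 47.4 in ML (41.0 to 54.5; 196 counts) and 55.9 in the sorted basal library (139 counts). The order LP, basal, ML held beyond counting error at each step, although LP was only 1.48 times basal (1.26 to 1.73), under the 2-fold mark. The LP level was 3.39 times that of ML (2.84 to 4.06). No LP cell had more than 5 counts of Cxcl16, and its variance was 1.71 times its mean in LP cells. Adam10 and Adam17, the proteases that shed Cxcl16 and Cx3cl1, were each highest in ML, at 110 and 25.9 CPM, the class with the lowest level of these ligands.

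**Figure D2:**
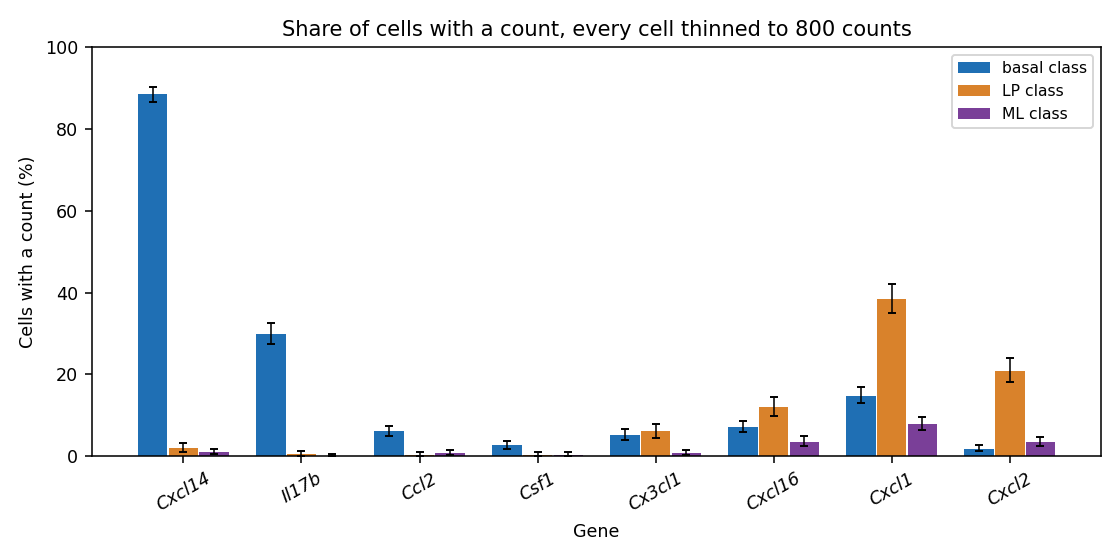
Share of cells (%) with a count of each gene after every cell of the total epithelium was thinned to 800 counts, by class, with exact binomial 95% intervals. Cxcl14 was found in 88.5% of basal cells, and Cxcl1 and Cxcl2 in 38.5% and 20.9% of LP cells.

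Cxcl1 and Cxcl2, the neutrophil chemokines, were the genes of the LP class. Cxcl1 had 1986 CPM in LP (1927 to 2046; 4287 counts), 356 in basal (334 to 380; 945 counts), 276 in ML (260 to 292; 1140 counts) and 144 in the sorted basal library (359 counts). Cxcl2 had 1818 CPM in LP (1762 to 1876; 3925 counts), 62.6 in basal (53.4 to 72.9; 166 counts), 176 in ML (164 to 190; 729 counts) and 28.1 in the sorted basal library (70 counts). LP cells thus had 5.57 times the basal level of Cxcl1 (5.19 to 5.99) and 29.0 times that of Cxcl2 (24.9 to 34.1). Over ML, the LP level was 7.20 times for Cxcl1 (6.74 to 7.69) and 10.3 times for Cxcl2 (9.52 to 11.2). The order of the lower classes differed between the genes: basal exceeded ML for Cxcl1 by 1.29 times (1.18 to 1.41), and ML exceeded basal for Cxcl2 by 2.82 times (2.38 to 3.36).

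The LP counts of these genes were spread very unevenly among cells. Cxcl1 was detected in 49.5% of LP cells, with 10 or more counts in 19.3% and up to 78 in a cell. Cxcl2 was detected in 27.2%, with 10 or more counts in 13.6% and up to 142 in a cell. The 8 LP cells with most held 10.8% of the Cxcl1 and 22.3% of the Cxcl2 counts, and the variance over cells was 19.5 and 48.5 times the mean, against 5.65 for Cxcl14 and 2.04 for Il17b in basal cells. The 2 genes were found in the same cells: Cxcl2 was present in 49.9% of the 379 LP cells with Cxcl1 (44.7 to 55.0%) and in 4.91% of the 387 without (2.98 to 7.56%). With every cell thinned to 800 counts, these shares were 45.8% (40.0 to 51.6%) and 5.31% (3.46 to 7.74%), a narrower gap whose intervals did not overlap. In thinned ML cells the shares were 29.5% and 1.24%, whereas in thinned basal cells they were 3.17% (1.17 to 6.78%) and 1.56% (0.910 to 2.48%).

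Levels in the other classes were higher in cells with LP markers. In the 135 ML cells with 5 or more counts of Elf5, Kit, Csn3, Aldh1a3, Cd14 and Wfdc18, Cxcl1 was at 1049 CPM and Cxcl2 at 807 CPM. In the 985 ML cells with neither LP markers nor collagen they were at 63.7 CPM and 35.6 CPM, so that the ML cells with LP markers had 16.5 times (14.1 to 19.2) and 22.7 times (18.6 to 27.8) as much. Against those 985 cells the whole LP class had 31.2 times the Cxcl1 level (27.1 to 35.9) and 51.1 times the Cxcl2 level (42.5 to 61.8). In the basal class, the 24 cells with LP markers held 102 of the 166 Cxcl2 counts, and the other 1256 cells were at 25.3 CPM of Cxcl2 and 318 CPM of Cxcl1. Set against the 985 ML cells, those 1256 basal cells, which include the 3 with collagen, had more Cxcl1 (95% interval of the ratio 4.29 to 5.84). They had less Cxcl2 (ratio 0.709, 0.515 to 0.969), the same order as in the whole classes. However, 1 of the 985 ML cells held 40 of their 119 Cxcl2 counts, so the order for Cxcl2 rests on few cells and is not settled. Within LP, the 625 cells with LP markers had 2180 CPM of Cxcl1 and 2031 CPM of Cxcl2, and the 141 without had 584 and 279 CPM. Scrublet, which simulates doublets, called 19 basal, 1 LP and 1 ML cell, beside 20 of the 26 cells that met the basal and the ML rule. The mark of 5 counts is not scaled to depth, and marked cells were deeper. The 135 ML cells held 748071 counts in all, against 3341887 in the 985. The 24 basal cells held 117296, against 2534507 in the other 1256. The part of depth and of doublets in these levels was not tested.

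Collagen-bearing cells had a different mix. The 13 such ML cells had 3307 CPM of Cxcl1 (2786 to 3898) and 140 CPM of Cxcl2 (51.3 to 304), together with 1560 CPM of Ccl2 (1209 to 1982) and 233 CPM of Csf1 (112 to 428). The 38 such remaining cells had 2702 CPM of Cxcl1, 131 of Cxcl2, 1037 of Ccl2 and 87.6 of Csf1. In both sets the summed Cxcl1 level stood above that of LP and the Cxcl2 level below, and no count of Il17b was found in either. However, a single cell held 56 of the 142 Cxcl1 counts of the 13 cells, and another 59 of the 185 of the 38. The order of Cxcl1 against LP thus rests on few cells and is not settled. Ccl2 was found in 8 of the 13 and 8 of the 38 cells, with up to 26 and 31 counts in a cell. Cxcl14 had no count in the former and 3 counts in the latter.

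**Figure D3:**
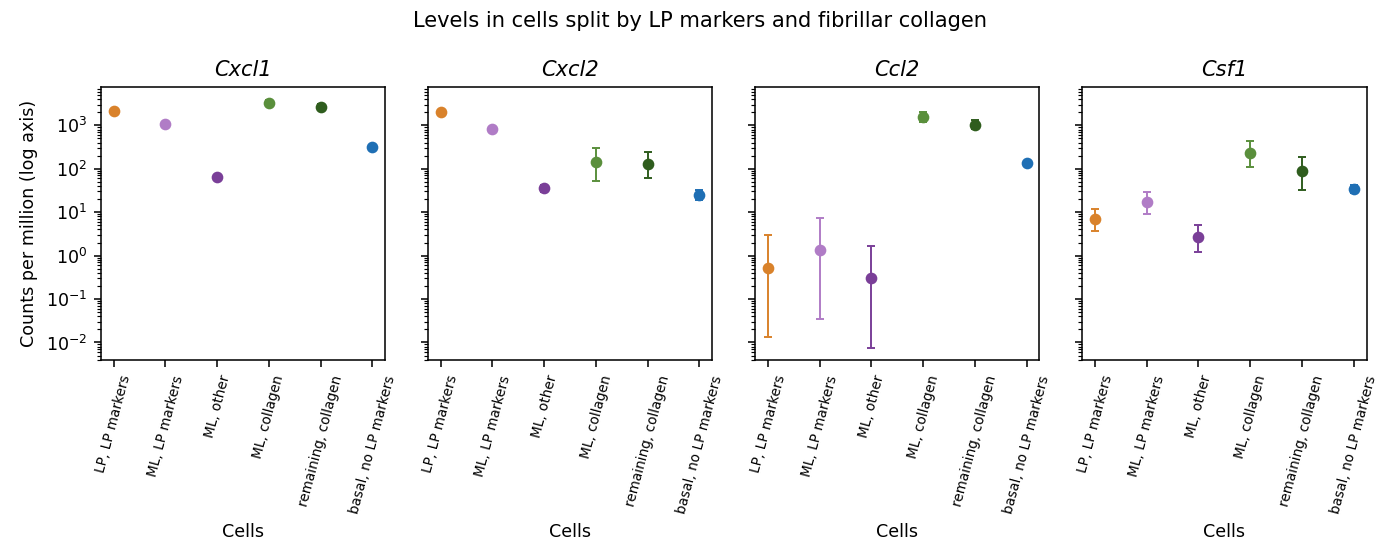
CPM (log axis) of Cxcl1, Cxcl2, Ccl2 and Csf1 with exact Poisson 95% intervals in cells split by LP markers (5 or more counts) and by fibrillar collagen (2 or more counts). Cxcl1 and Cxcl2 were high in LP and ML cells with LP markers and low in the 985 ML cells with neither mark, Cxcl1 was also high in collagen-bearing cells, and Ccl2 was high there, at 1560 and 1037 CPM.

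Cxcl5 and Ccl20 were close to absent. Cxcl5, another Cxcr2 ligand, had 1 count in LP and 4 in ML, and Ccl20 had 2 counts in LP. Neither had a count in the 1280 basal cells, which allows a share of up to 0.234% of cells with a count, or in the 4771 sorted basal cells, which allows up to 0.0629%. Differences between classes were not detectable for these genes at this depth.

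The genes most like each member were sought by Pearson's r across the cells of its highest class, on the natural log of 1 plus counts per 10000. The points are cells of 1 library and share its depth, so r is a description. In the 766 LP cells, over 2782 genes, Cxcl1 was most like Cxcl2 (r = 0.62), Nfkbia (0.47), Csf3 (0.42), Plet1 (0.40) and Ier3 (0.38), with r of 0.58, 0.36, 0.33, 0.35 and 0.30 after thinning. Nfkbia encodes the inhibitor of NF-kappaB that is itself an NF-kappaB target, and Csf3 encodes the granulocyte growth factor G-CSF. Cxcl2 was most like Cxcl1, Csf3 (0.40), Nfkbia (0.32), Plet1 (0.29) and Zc3h12a (0.28; 0.12 thinned), the last an RNase that degrades cytokine transcripts. Csf3 was present in 43.8% of LP cells with Cxcl1 (38.7 to 49.0%) and in 10.6% of those without (7.71 to 14.1%). For Cxcl16 the leading gene was also Nfkbia (0.22), but no value exceeded 0.16 after thinning. In the 1280 basal cells, over 3612 genes, Cxcl14 was most like Apoe (0.41), Krt14 (0.38), Sfn (0.35), Krt17 (0.32) and Slpi (0.28), with 0.14, 0.21, 0.16, 0.22 and 0.25 after thinning, and Krt14 is a gene of the basal rule. Il17b was most like Dcn (0.26), 1500015O10Rik (0.25) and 1600014C10Rik (0.22), each at most 0.13 after thinning. Cx3cl1 and Ccl2 had no gene at 0.2 or above.

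Preparation of single cells can induce immediate-early genes such as Fos and Jun, so the cells of each class were split into tertiles by the share of their counts in 11 of these genes. In LP cells Cxcl1 was level over the tertiles, at 1985 (1890 to 2084), 2038 (1937 to 2142) and 1921 CPM (1810 to 2037) from lowest to highest. Cxcl2 went down, from 2292 (2190 to 2398) to 1850 (1754 to 1951) and 1105 CPM (1021 to 1193), while Nfkbia went up from 1744 to 3030 and 4103 CPM. Cxcl16 went up as well, from 111 (89.6 to 136) to 172 and 216 CPM (180 to 257). The variance over LP cells was 19.5 times the mean for Cxcl1 and 48.5 times for Cxcl2. The intervals leave out this spread, so the course of these 2 genes over the LP tertiles is not settled. In ML cells Cxcl1 and Cxcl2 were lowest in the lowest tertile, at 102 and 14.3 CPM, against 341 and 260 CPM in the highest. The 135 ML cells with LP markers held 785 of the 1140 Cxcl1 and 604 of the 729 Cxcl2 counts of the class. How those cells fell among the tertiles was not tested. In basal cells Cxcl1 went from 230 to 380 and 483 CPM and Cxcl14 from 3886 to 4991 and 5375 CPM, while Il17b went down from 578 to 497 and 455 CPM. Cxcl2 in basal cells went from 115 (94.9 to 139) to 29.7 and 34.8 CPM (23.1 to 50.3). However, 13 basal cells held 81.9% of its 166 counts in the class, so its tertile values rest on few cells. Csf1 in basal cells went from 50.4 to 28.6 and 19.9 CPM. The median depth of LP cells went from 2893 counts in the lowest to 1990 in the highest tertile, and its part in these values was not tested.

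**Figure D4:**
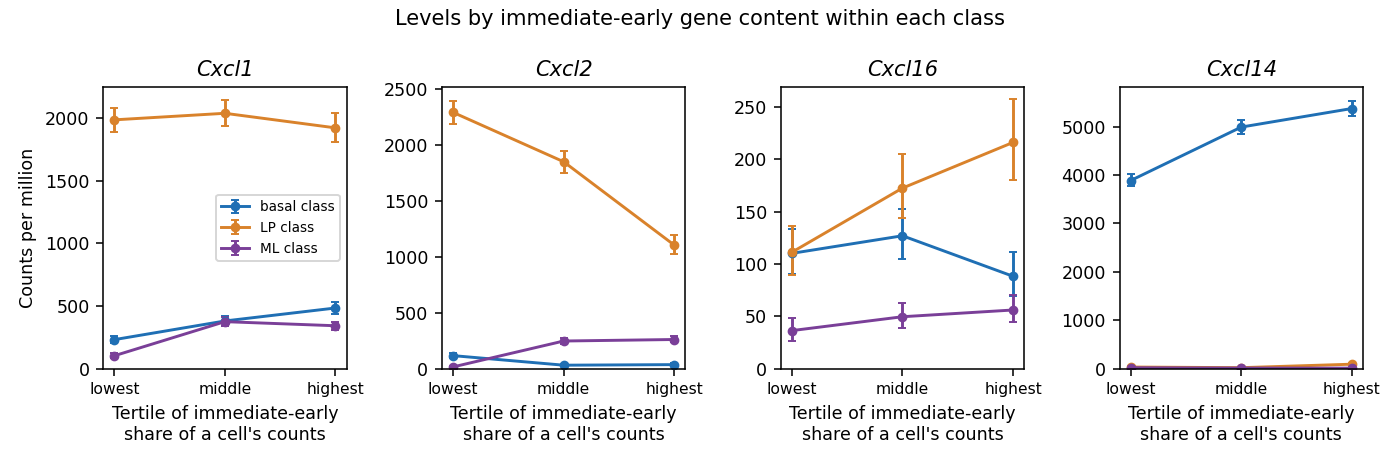
CPM of Cxcl1, Cxcl2, Cxcl16 and Cxcl14 in tertiles of cells by the share of counts in 11 immediate-early genes, for each class, with exact Poisson 95% intervals. In LP cells Cxcl1 stayed between 1921 and 2038 CPM, Cxcl2 went from 2292 to 1105 CPM and Cxcl16 from 111 to 216 CPM. The intervals leave out the spread among cells.

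The sorted basal library allowed the basal levels to be set beside those of cells isolated with the added CD29 gate. Here 8 genes could be compared. The sorted library was 2-fold or more higher for 2 of them, Csf1 and Cx3cl1 (background 29.1% of 10114 genes), and the basal class was 2-fold or more higher for 4, Cxcl1, Cxcl2, Ccl2 and Il17b (background 15.4%). The median log2 ratio of sorted over basal class was 0.47 over all tested genes. Csf1 was 3.01 times higher (2.36 to 3.87) and Cx3cl1 2.01 times higher (1.68 to 2.41) in the sorted library. The Cx3cl1 ratio sat at the 2-fold mark, and it was 1.91 with mitochondrial and ribosomal genes out of the totals and 1.55 without the 1% of cells with most counts. The basal class had 2.56 times the Il17b (2.31 to 2.84), 2.47 times the Cxcl1 (2.19 to 2.80), 2.23 times the Cxcl2 (1.67 to 2.99), 2.17 times the Ccl2 (1.79 to 2.64) and 1.95 times the Cxcl16 (1.59 to 2.41) of the sorted library. Cxcl14 differed least, with the sorted library at 0.809 times the basal class (0.787 to 0.831).

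These libraries differ in sort, in depth and in capture, and the part of each cannot be told apart. Whether the same mice gave both pools is not given in the sources used here. With cells thinned to 400 counts, which left out 1594 sorted cells, Csf1 was in 1.02% of basal-class and 3.65% of sorted cells, Cx3cl1 in 3.13% and 4.34%, Il17b in 17.7% and 5.95%, and Cxcl1 in 8.52% and 3.71%. When only the 1758 sorted cells with 10 or more basal keratin and Acta2 counts were kept, Csf1 was 3.32 times and Cx3cl1 2.02 times the basal class, and Il17b was 2.28 times higher in the basal class. The directions for these genes were the same in both settings, but the thinned Cx3cl1 intervals overlapped (2.24 to 4.23% and 3.66 to 5.11%). A rule of 10 counts is harder to pass at lower depth, and it was not combined with thinning. In the sorted library, 195 cells met the LP rule, and they had 3.19 times the Cxcl1 (2.32 to 4.30) and 13.6 times the Cxcl2 (8.16 to 22.4) of the other cells, which were at 17.3 CPM of Cxcl2. The 11 immediate-early genes summed to 35926 CPM in the basal class and 45469 CPM in the sorted library, and Nfkbia was at 990 and 493 CPM. Their part in the differences was not tested.

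**Figure D5:**
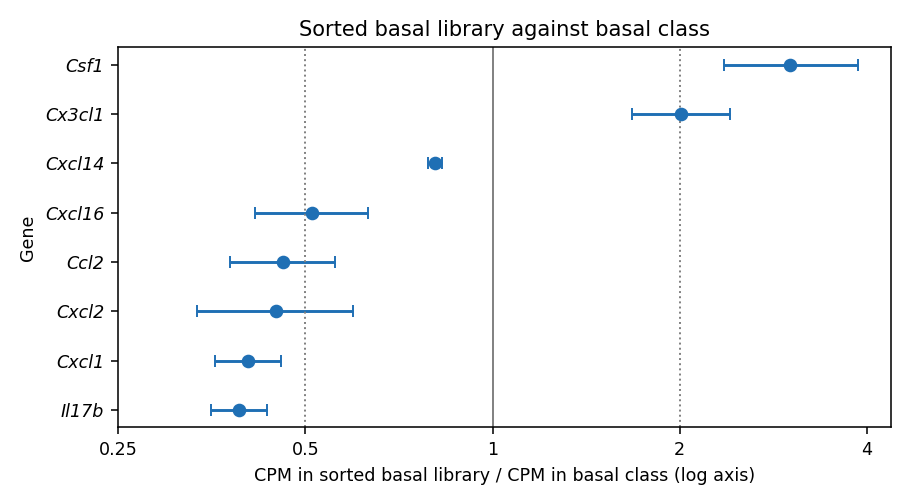
Ratio (log axis) of CPM in the sorted basal library to CPM in the basal class of the total epithelium for the 8 genes with enough counts, with exact 95% intervals; dotted lines mark 2-fold. Csf1 and Cx3cl1 lie to the right of 1, at 3.01 and 2.01, and the other 6 to the left.

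Cells carrying CD45 had been gated out, so receptors on leukocytes are not covered here. Of 25 receptor genes, 11 had a count in the total epithelium, against 15719 of all 27998 genes. The 14 without a count included Cxcr2, the receptor of Cxcl1 and Cxcl2. Csf1r had 1 count in the total epithelium and 1 in the sorted library. Only 5 receptor genes had 50 or more counts, of which 3 were highest in basal and 2 in LP. Ackr3, the scavenging receptor for Cxcl12, had 244 CPM in basal (226 to 264), 29.2 in LP and 14.0 in ML. Cxcr4, the signalling receptor for Cxcl12, had 17.6 CPM in LP, 4.15 in basal and 2.66 in ML. Of 13 NF-kappaB genes, 8 were highest in LP, 3 in basal and 2 in ML. Over all genes with a count, 41.9% were highest in basal, 19.2% in LP and 38.9% in ML, a share not limited to genes with 50 or more counts. Some orders were close, as for Rel, at 17.3 CPM in basal and 17.1 in LP. The NF-kappaB genes included Nfkbia, at 2826 CPM in LP, 1323 in ML and 990 in basal. Icam1, an adhesion ligand for leukocytes, was at 1123 CPM in basal against 91.7 in LP and 69.0 in ML.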

How the data were processed

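The authors captured each pool of cells on the 10X Chromium system with 3 prime chemistry, and deposited unnormalized counts of unique molecules, per gene and cell barcode. The submitters' processing notes name Cell Ranger 1.2.1 and mm10, and the study's methods name a later Cell Ranger release. Cell calling and collapse of duplicate reads were part of that step, and such counting drops reads that map to several genes. All deposited cells were kept. The study states slightly more cells for total epithelium and slightly fewer for the sorted basal library than the 3302 and 4771 barcodes deposited, and gives no threshold for its filter on low coverage.

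Counts were summed over the cells of a class in 1 library and divided by the total counts of those cells to give CPM, with exact Poisson 95% intervals. Shares of cells have exact Clopper-Pearson 95% intervals, and ratios of CPM have exact conditional binomial intervals. Intervals and limits (3 counts for a count of 0) cover counting error only. With 1 library per group no test between groups was possible, and a 2-fold ratio with at least 20 counts over both groups took the place of a call. The ratio script was checked on simulated Poisson counts. These lack the spread among cells seen in the data, so the intervals were not checked for that spread. Cells were thinned to 800 counts within the total epithelium and to 400 between libraries. Doublets were not removed, and leaving out the 41 cells (1.24%) that Scrublet called was an alternative. Gene positions came from GENCODE vM21 and promoters from RefSeq GRCm38.p6. Other settings were other class thresholds, doublets, the deepest cells, the normalization, the filter on low counts and the cells that dominate a gene. Leaving out cells with LP markers, with collagen or with shared barcodes was added after the data were seen.

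The 10 genes, the class rule and the gene lists were chosen with earlier results of these data known. All 10 genes were named, together with up to 5 genes most like each of those with 100 or more counts in their highest class (r of 0.2 or more, among genes with 100 or more counts there) and the list genes with 50 or more counts in the total epithelium. Cxcl3, Ccl7 in pairs with Ccl2, Cxcr2, Csf1r, Il17rb and the chromosome 5 neighbours were named after their values were seen. The analysis used Python 3.11.15, numpy 2.4.6, scipy 1.17.1, pandas 2.3.3, scanpy 1.11.5 and matplotlib 3.10.9.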

Additional observations from a re-analysis of the deposited data

How the results depend on the processing

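The class with the highest CPM was the same under 9 of 9 alternatives for 8 genes. Cxcl5 and Ccl20 kept theirs under 8 of 9 and had no count left once the 1% of cells with most counts per gene were left out, which took the number of genes highest in ML to 0. With no filter on low counts, 4 genes were 2-fold or more higher in LP than in basal, 2 in ML than in basal and 2 in ML than in LP, the added ones being Cxcl5 or Ccl20. Without basal and ML cells that carry LP markers, 0 genes were 2-fold or more higher in ML than in basal, since Cxcl2 no longer was. Without collagen-bearing cells, 0 were higher in ML than in LP, since Ccl2 no longer was. In the sorted library, 1 gene (Csf1) was 2-fold or more higher than in the basal class with mitochondrial and ribosomal genes out of the totals, where Cx3cl1 was at 1.91, and 1 with the top 1% of cells left out, where Cx3cl1 was at 1.55. The other 101 recomputed counts of genes stayed within 1.5 times their value, and of the CPM of single genes 203 moved by less than their counting interval and 67 by more. Cxcl1 and Cxcl2 in ML went to 104 and 37.1 CPM without cells with LP markers, and Cxcl2 in basal to 11.5 CPM without the top 1% of cells. No paired analysis was possible because each group is 1 library. Depth limits Cxcl5, Ccl20, Csf1 and single cells of the sorted library, with a median of 487 counts.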

Other observations

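Other chemokine genes divided the classes further. Of 30 further ligands, 26 could be matched to 1 row and 6 had 50 or more counts, 3 highest in basal and 3 in ML, with 0 in LP. Cxcl12, the ligand of Cxcr4 and Ackr3, had 216 CPM in basal cells (198 to 234) and 2.32 and 2.66 CPM in LP and ML. Ccl7 (45.3 CPM) and Ccl11 (8.67 CPM) were also highest in basal. In ML, Cxcl15 had 979 CPM (949 to 1009) and a count in 81.3% of cells, against 70.0 CPM in LP and 3.77 CPM in basal. Cxcl17 had 147 CPM in ML, 17.6 in LP and 1.13 in basal. Of 29 further cytokine genes, 12 had 50 or more counts, 5 highest in basal, 5 in LP and 2 in ML. Over all genes with a count, the shares were 41.9% for basal, 19.2% for LP and 38.9% for ML. LP cells had 927 CPM of Csf3 (886 to 968), 79.7 of Tnf and 34.7 of Lif, against 29.0, 3.77 and 2.26 CPM in basal cells. Il33, an alarmin of barrier epithelia, was at 93.9 CPM in ML, and Tnfsf11, the RANK ligand that progesterone induces, at 16.9 CPM. Kitl, the ligand of the LP marker Kit, was highest in basal, at 462 CPM (437 to 489), against 140 in LP and 116 in ML.

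On chromosome 5, Cxcl1 and Cxcl2 sit in a stretch of 354 kb in which neighbours had different highest classes. The stretch was chosen after the values were seen, and Cxcl5 lies outside it. From Cxcl15 to Areg it holds 7 protein-coding genes in the annotation used here. Cxcl15 was highest in ML, its neighbours Cxcl1 and Cxcl2 in LP, and Mthfd2l in basal (46.4 CPM, against 31.5 in LP and 35.6 in ML). Epgn (32.4 CPM) and Areg (2995 CPM), both ligands of the EGF receptor, were highest in ML, and Ereg had 1 count in the 3 classes.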
